A study of Mus musculus with 18 samples.

Results

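The Notch pathway was followed through 10 genes in 18 primary mouse mammary tumours: the receptors Notch1, Notch2, Notch3 and Notch4, the ligands Jag1 and Dll1, and the target genes Hes1, Hey1, Hey2 and Heyl. They were chosen as the array features whose annotated symbol is 1 of these names. All 10 genes were measured, each by 1 feature, among 16887 genes with a single symbol on 22575 features. The submitters labelled the tumours Wnt1 (n = 6), Wnt1_iFGFR1, Wnt1_iFGFR2 and Wnt1_iR2 (n = 4 each), called Wnt1, iFGFR1, iFGFR2 and iR2 here. All 18 titles carry FVB, a mouse strain, together with MMTV and Wnt1, so every group shares the Wnt1 label. MMTV is the viral promoter used to drive Wnt1, a secreted Wnt ligand, in mammary epithelium. By its title, the series is about cooperation between Wnt-1 and FGF receptor signals in tumours of the mammary gland. The labels do not expand iFGFR1, iFGFR2 or iR2, and they give no promoter for them, no age and no treatment. The iR2 group was kept apart from iFGFR2 as labelled.

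Notch receptors are membrane proteins that are cut when a ligand of the Jagged or Delta-like family on a neighbouring cell binds them. The freed intracellular part enters the nucleus and joins the DNA-binding protein Rbpj to switch on targets, among them the Hes and Hey genes, which encode repressors of transcription. In the mammary gland the pathway is known for its part in luminal cell fate, and Notch4 was first found as a site where MMTV inserts in mouse mammary tumours.

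Each array compared tumour RNA, labelled with Cy5, with RNA of whole mice, labelled with Cy3. All values below are log2 ratios of tumour to this reference, so 1 unit is a 2-fold difference and a gene at 0 has the same signal in both. Keratin 18, a luminal epithelial gene, had a mean ratio of 3.22 over the 18 arrays and the liver gene Fgb one of -5.25. Arrays correlated with the others of their group at 0.945 to 0.956 in iR2 and at 0.761 to 0.880 in the other groups. Wnt1 replicate 3 had the lowest such value of its group, 0.778, and stood apart for several genes below. In genes measured by 2 features (1081 genes), the median correlation of the 2 features over the arrays was 0.0714. Each of the 10 genes rests on 1 feature and has no such check.

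Of the 10 genes, 4 differed over the 4 groups in an F test with limma (adjusted p below 0.05), against 19.6% of all genes tested. These were Hey1 (adjusted p = 0.000566), Notch4 (0.000936), Notch1 (0.00401) and Dll1 (0.00764). Each of these 4 calls held when any 1 array was left out. The 10 genes were chosen with earlier results of these data known, so the share called is no test of the pathway. Against Wnt1, iFGFR1 tumours had higher Notch4 and lower Notch1 and Dll1, which is 3 of 10 genes called against 15.4% of all genes. In iFGFR2 tumours 1 of 10 was called, Hey1, against 3.43% of all genes, and in iR2 tumours likewise 1 of 10, also Hey1, against 7.1%. The median difference of the 10 genes from Wnt1 was -0.12 in iFGFR1, -0.08 in iFGFR2 and -0.09 in iR2, and over all genes it was 0.02, 0.01 and -0.05. Differences of both signs occurred in each group. The 3 comparisons share the 6 Wnt1 arrays.

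**Figure D1:**
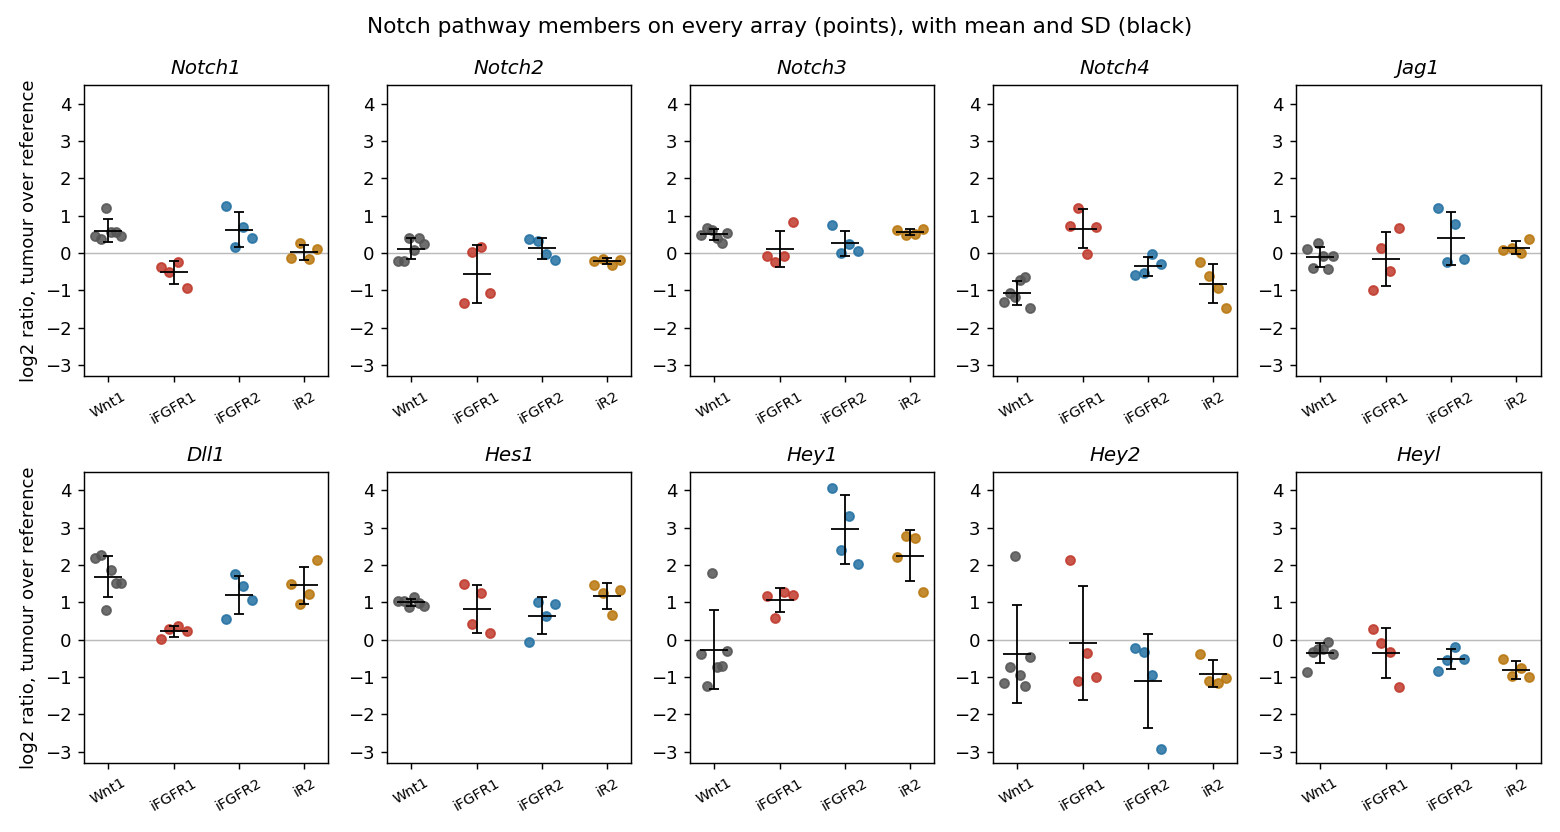
Log2 ratio of tumour to whole-mouse reference RNA (vertical axis) for the 10 Notch pathway genes in the 4 tumour groups, with 1 point per array and black bars at each group's mean and SD. Hey1 sits at 2.02 to 4.07 in iFGFR2 and at -1.24 to -0.31 on 5 of the 6 Wnt1 arrays, and Notch4 is above 0 on 3 of the 4 iFGFR1 arrays and on no other array.

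Among the receptors, Notch4, a receptor known chiefly from endothelial cells, was higher in iFGFR1 tumours than in Wnt1 tumours. The 4 iFGFR1 arrays read 0.735, 1.212, -0.036 and 0.702, and the 6 Wnt1 arrays lay between -1.46 and -0.64 with a median of -1.11. Every iFGFR1 array was above every Wnt1 array, a separation seen between these groups for 9.49% of all genes. The mean was 0.65 ± 0.52 (SD, n = 4) in iFGFR1 and -1.06 ± 0.32 (n = 6) in Wnt1, a rise of 1.72 (SE 0.25, 3.29-fold, limma adjusted p = 0.000202).

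The other groups fell between. Notch4 read -0.592, -0.528, -0.038 and -0.287 in iFGFR2 and -0.234, -0.608, -0.946 and -1.481 in iR2. The iFGFR2 arrays were all above the Wnt1 arrays, as held in 1 direction or the other for 4.47% of all genes, but the difference of 0.70 (95% interval 0.17 to 1.23, adjusted p = 0.118) did not pass. The iR2 arrays overlapped those of Wnt1, with a difference of 0.25 (-0.28 to 0.78, adjusted p = 0.620). The order of the group means was iFGFR1, iFGFR2, iR2 and Wnt1. The mean of iFGFR2 was lower than that of its neighbour iFGFR1 by 1.01 (adjusted p = 0.0635), a difference called without iFGFR1 replicate 3 (-1.24, 0.0318), and iR2 was 0.46 lower than iFGFR2 with an adjusted p of 0.473. The levels in iR2 and iFGFR1 differed beyond their spread, by -1.47 (SE 0.28, adjusted p = 0.00215), a call lost with the title number in the fit (-1.44, 0.0937).

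Notch1, the receptor most often altered by activating mutations in T-cell leukaemia, went the other way in iFGFR1. Its iFGFR1 arrays read -0.365, -0.518, -0.249 and -0.937. Its Wnt1 arrays lay between 0.367 and 1.197 with a median of 0.507, the highest being replicate 3. All iFGFR1 arrays were below 0 and all Wnt1 arrays above it. The arrays of iFGFR1 and Wnt1 were apart, in either direction, for 9.49% of all genes. The mean fell by 1.12, from 0.60 ± 0.30 to -0.52 ± 0.30 (SE 0.22, 2.17-fold, adjusted p = 0.00199).

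In iFGFR2 tumours Notch1 read 1.249, 0.157, 0.683 and 0.411, a mean of 0.62 ± 0.47 that differed from Wnt1 by 0.02 (95% interval -0.43 to 0.48). Its difference from iFGFR1, 1.14 (SE 0.24, adjusted p = 0.0139), was the only call among the 10 genes between iFGFR2 and iFGFR1, where 2.13% of all genes were called. The fit to those 8 arrays alone did not call it. In iR2 tumours Notch1 read -0.139, 0.258, -0.15 and 0.109, below every Wnt1 array. That difference, -0.58 (SE 0.22), had an adjusted p of 0.108. It passed with array weights (0.00352), with the arrays scaled to 1 spread (0.0474) and in a fit to the arrays compared (0.0465). The ranges of iR2 and Wnt1 did not overlap for 13.6% of all genes.

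Notch2 and Notch3, the other receptors, were not called in any comparison. Notch2 read -1.351, 0.016, 0.172 and -1.078 in iFGFR1, so 2 of these arrays lay below the other 16 and 2 within their range. Its difference from Wnt1 was -0.67 (SE 0.26, adjusted p = 0.0812), and it was called without iFGFR1 replicate 2 (-0.87, adjusted p = 0.0308) or replicate 3 (-0.92, 0.027). Notch2 differed from Wnt1 by 0.01 in iFGFR2 (95% interval -0.53 to 0.54) and by -0.33 in iR2 (-0.86 to 0.21).

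Notch3, a receptor of mural cells, read 0.827 on iFGFR1 replicate 4 and between -0.246 and -0.07 on the other 3 iFGFR1 arrays. In Wnt1 it lay between 0.28 and 0.679 and in iR2 between 0.471 and 0.631. The difference of iFGFR1 from Wnt1 was -0.39 (SE 0.20, adjusted p = 0.200). Without iFGFR1 replicate 4 it was -0.63 (adjusted p = 0.0266), and that of iR2 from iFGFR1 was 0.69 (0.0281). With all arrays kept the latter also passed under scaling to 1 spread (0.60, 0.0368) and with array weights (0.53, 0.0402), where the F test passed too (0.0497). That scaling also raised the calls between iR2 and iFGFR1 over all genes, and array weights those of the F test.

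Promoters of Notch1, Notch4 and Dll1, which were called, and of the target Hey2 are shown because Rbpj and the Hes and Hey repressors act on such sequence. RefSeq windows were used for 7 of the 10 genes and for none of Hes1, Hey1 and Heyl. They are given here from 250 bases before to 10 bases after the start of transcription in build GRCm38.p6. Searched on both strands were TGGGAA (core site of Rbpj), CACGTG and CACGCG (sites of Hes and Hey factors), CTTTGA (TCF/LEF core) and CCGGAAG (ETS site). No letters of these motifs overlap in the windows shown, and capitals mark a match. The Notch1 window lies at chr2:26503813-26504072 on the minus strand and the Notch4 window at chr17:34564045-34564304 on the plus strand. Neither held a match.
Notch1: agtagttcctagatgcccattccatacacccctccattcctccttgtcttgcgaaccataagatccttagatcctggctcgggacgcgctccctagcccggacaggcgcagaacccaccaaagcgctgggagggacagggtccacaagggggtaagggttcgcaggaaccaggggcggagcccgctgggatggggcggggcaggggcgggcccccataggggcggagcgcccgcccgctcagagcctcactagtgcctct
Notch4: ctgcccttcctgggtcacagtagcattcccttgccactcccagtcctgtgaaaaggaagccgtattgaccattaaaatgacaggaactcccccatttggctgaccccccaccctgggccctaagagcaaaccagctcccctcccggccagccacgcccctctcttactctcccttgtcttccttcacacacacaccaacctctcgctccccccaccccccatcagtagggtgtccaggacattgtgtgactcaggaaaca

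Of the ligands, Dll1, a Delta-like ligand, was lower in iFGFR1 tumours than in Wnt1 tumours. The 4 iFGFR1 arrays read 0.009, 0.284, 0.368 and 0.241, and the 6 Wnt1 arrays 0.791 to 2.269 with a median of 1.69. No iFGFR1 array reached the lowest Wnt1 array, replicate 3, and these groups were apart for 9.49% of all genes. The mean fell by 1.46, from 1.69 ± 0.54 to 0.23 ± 0.15 (SE 0.28, 2.76-fold, adjusted p = 0.00198).

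Dll1 read 0.553, 1.749, 1.429 and 1.074 in iFGFR2 and 1.488, 0.955, 1.236 and 2.138 in iR2. Both ranges overlapped that of Wnt1, and the differences were -0.49 (95% interval -1.08 to 0.10) and -0.24 (-0.83 to 0.36). The order of the means was Wnt1, iR2, iFGFR2 and iFGFR1. The first 3 did not differ beyond their spread, and iFGFR2 stood 0.98 above iFGFR1 with an adjusted p of 0.111. Between iR2 and iFGFR1 the difference was 1.23 (SE 0.31, adjusted p = 0.0139), and it was not called without iR2 replicate 4 (adjusted p = 0.0600) or with the title number in the fit (0.217). With Notch4 that made 2 of 10 genes called between iR2 and iFGFR1, against 11.7% of all genes. The arrays of these groups were apart for 3 of 10 genes (Notch1, Notch4 and Dll1), against 22.2% of all genes.

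RefSeq gives 2 start windows for Dll1, at chr17:15375814-15376073 and chr17:15376923-15377182, both on the minus strand. The second held CACGCG, with its first base at -68 from the start. CACGCG occurred in 7.97% of the 32851 promoter windows of this length and in 3 of the 8 windows of the 10 genes. The other windows with it belong to Notch2 and Jag1. The 8 windows were 56.54% to 71.15% G and C, against a median of 52.31% over all windows. The 2 shares therefore do not compare like sequence. No measurement of binding was made.
Dll1 window 1: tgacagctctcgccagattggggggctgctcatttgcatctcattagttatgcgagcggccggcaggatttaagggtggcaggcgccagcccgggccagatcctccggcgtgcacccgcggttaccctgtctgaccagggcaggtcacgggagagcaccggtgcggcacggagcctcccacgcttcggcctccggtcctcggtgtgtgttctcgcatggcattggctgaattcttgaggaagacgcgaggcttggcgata
Dll1 window 2: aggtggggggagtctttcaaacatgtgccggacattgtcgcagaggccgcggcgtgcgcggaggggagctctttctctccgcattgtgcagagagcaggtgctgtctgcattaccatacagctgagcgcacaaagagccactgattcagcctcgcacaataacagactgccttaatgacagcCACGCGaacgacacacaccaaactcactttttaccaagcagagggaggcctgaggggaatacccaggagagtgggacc

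Jag1, the Jagged ligand measured, was not called in any comparison. It read -1.001, 0.141, -0.479 and 0.682 in iFGFR1 and 1.197, -0.24, 0.786 and -0.155 in iFGFR2. The Wnt1 range was -0.422 to 0.256, and 2 iFGFR1 arrays lay below it, 1 within it and 1 above. In iFGFR2, 2 arrays lay above it and 2 within, and the iR2 arrays lay between -0.012 and 0.384. The differences from Wnt1 were -0.06 (95% interval -0.69 to 0.56) in iFGFR1, 0.50 (-0.13 to 1.13) in iFGFR2 and 0.25 (-0.38 to 0.87) in iR2.

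Among the targets, Hey1, a repressor of the Hey family, was higher in iFGFR2 and iR2 tumours than in Wnt1 tumours. The iFGFR2 arrays read 4.066, 2.416, 3.308 and 2.024 and the iR2 arrays 2.223, 2.766, 2.737 and 1.285. The Wnt1 arrays lay between -1.241 and 1.774 with a median of -0.55. Of these, replicate 3 read 1.774 and the other 5 were below -0.3. All 4 iFGFR2 arrays were above every Wnt1 array, and 3 of the 4 iR2 arrays were. The arrays of iFGFR2 and Wnt1 were apart, in either direction, for 4.47% of all genes.

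The mean of Hey1 was 2.95 ± 0.92 (n = 4) in iFGFR2, 2.25 ± 0.69 (n = 4) in iR2 and -0.26 ± 1.05 (n = 6) in Wnt1. The rise was 3.22 in iFGFR2 (SE 0.47, 9.30-fold, adjusted p = 0.00196) and 2.52 in iR2 (SE 0.47, 5.72-fold, adjusted p = 0.00469). The call in iR2 was lost when the number that each title carries entered the fit (3.16, adjusted p = 0.162). All iR2 numbers are above those of the other groups, so the number and the iR2 label cannot be told apart.

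The iFGFR1 arrays of Hey1 read 1.165, 0.575, 1.289 and 1.208, a mean of 1.06 ± 0.33. They lay above 5 of the 6 Wnt1 arrays and below replicate 3. The difference from Wnt1 was 1.32 (SE 0.47, adjusted p = 0.0613) and did not pass. Without Wnt1 replicate 3 it was 1.73 (adjusted p = 0.0026) and passed, as it did without iFGFR2 replicate 1 (0.0451). With all arrays kept it passed with array weights (1.57, 0.0331) and among the more variable genes (0.0359). The order of the means was iFGFR2, iR2, iFGFR1 and Wnt1. No pair of neighbours in this order differed beyond the threshold. The iFGFR2 arrays were all above the iFGFR1 arrays (6.17% of all genes were so separated in either direction), by 1.89 on average (SE 0.51, adjusted p = 0.0590). The iR2 arrays were 1.19 above iFGFR1 (SE 0.51, adjusted p = 0.143) and 0.70 below iFGFR2 (95% interval of the difference -1.77 to 0.37). Without Wnt1 replicate 3 these differences of iFGFR2 and iR2 from iFGFR1 had adjusted p-values of 0.0086 and 0.0441.

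Hes1, a classical target of the pathway, was above the reference on 17 of the 18 arrays and was not called in any comparison. It lay between 0.88 and 1.142 in Wnt1 and between 0.655 and 1.456 in iR2. It spread more widely in iFGFR1, with 1.484, 0.41, 1.252 and 0.169, and in iFGFR2, with -0.059, 1.02, 0.629 and 0.965. The differences from Wnt1 were -0.17 (95% interval -0.70 to 0.36), -0.36 (-0.89 to 0.17) and 0.17 (-0.36 to 0.71) in iFGFR1, iFGFR2 and iR2.

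Hey2 was the most variable of the 10 genes within groups, with a pooled SD of 1.22. It read 2.238 on Wnt1 replicate 3 and -1.244 to -0.469 on the other 5 Wnt1 arrays. It read 2.148 on iFGFR1 replicate 1 and -1.117 to -0.354 on the other 3, and -2.924 on iFGFR2 replicate 4. Single arrays set its group means, and no difference was called. That of iFGFR1 from Wnt1 was 0.30 (95% interval -1.10 to 1.70).

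Heyl, a further Hey family repressor, lay between -1.276 and 0.281 and was not called. Its differences from Wnt1 were 0.00 (SE 0.24) in iFGFR1, -0.17 (95% interval -0.67 to 0.34) in iFGFR2 and -0.46 (adjusted p = 0.267) in iR2. With the arrays scaled to 1 spread, which raised the iR2 calls over all genes too, the last passed, with an adjusted p of 0.0479. Its difference of iR2 from iFGFR1, -0.46 (adjusted p = 0.287), passed only without iFGFR1 replicate 4 (-0.77, 0.0346) and with that scaling.

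Hes1, Hey1 and Heyl were not searched. Among the 8 windows of the other 7 genes, the Rbpj core was found only in that of Hey2, at chr10:30842774-30843033 on the minus strand. It held TGGGAA on the reverse strand (first base at -207 from the start) and on the gene's own strand (at -3). The reverse-strand match reads TTCCCA here. TGGGAA occurred in 22.4% of all promoter windows of this length.
Hey2: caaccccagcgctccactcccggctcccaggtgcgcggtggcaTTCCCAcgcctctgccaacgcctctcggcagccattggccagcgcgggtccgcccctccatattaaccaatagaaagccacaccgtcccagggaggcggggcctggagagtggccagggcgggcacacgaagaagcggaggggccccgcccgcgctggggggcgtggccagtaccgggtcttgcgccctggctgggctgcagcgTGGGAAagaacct

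**Figure D2:**
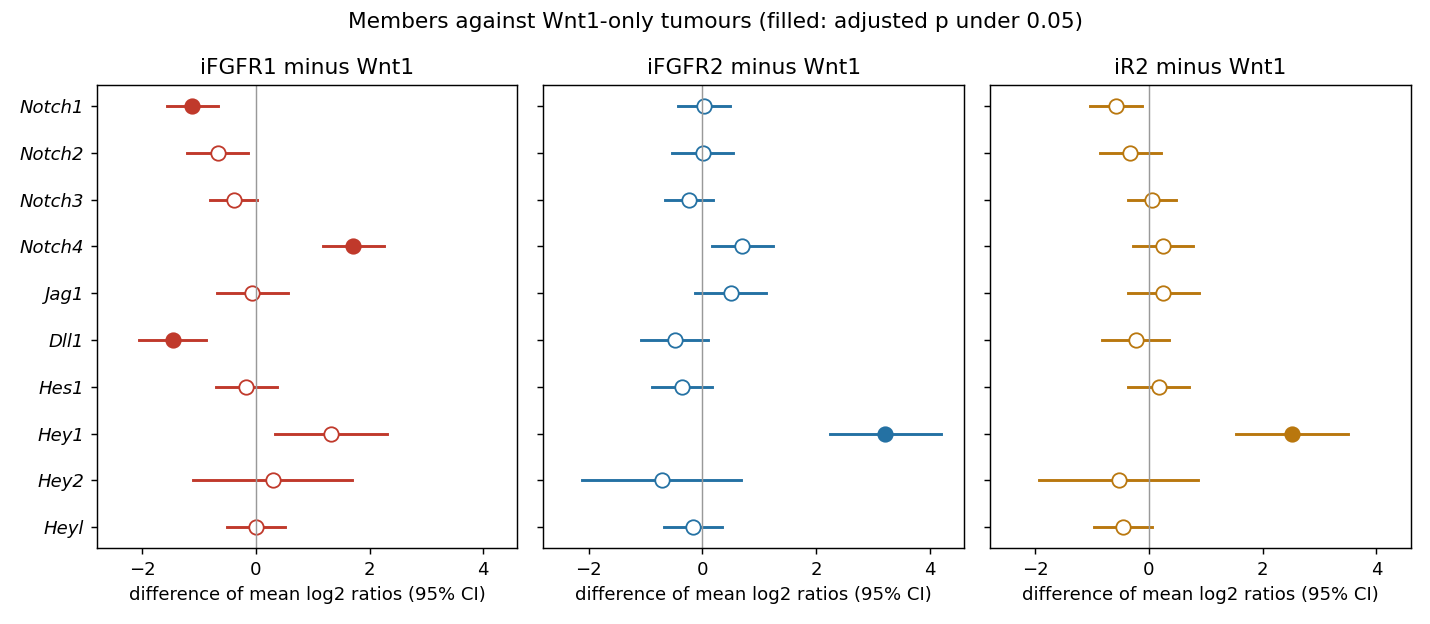
Difference of each receptor group from Wnt1 in mean log2 ratio (horizontal axis) for the 10 genes, with 95% intervals from limma; filled points passed an adjusted p of 0.05. Filled are Notch1, Notch4 and Dll1 in iFGFR1 and Hey1 in iFGFR2 and iR2. The unadjusted intervals of Notch2 and Hey1 in iFGFR1, Notch4 in iFGFR2 and Notch1 in iR2 also lie away from 0. Those of Notch3, Jag1, Hes1, Hey2 and Heyl include 0 in all 3 groups.

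With the 3 receptor groups averaged, 4 of 10 genes differed from Wnt1, against 12.5% of all genes. Hey1 was higher by 2.35 (SE 0.36, adjusted p = 0.000629) and Notch4 by 0.89 (SE 0.20, 0.00707), and Notch1 fell by 0.56 (SE 0.17, 0.0339) and Dll1 by 0.73 (SE 0.22, 0.0339). The groups were unlike in this. In iFGFR1, iFGFR2 and iR2, Notch1 differed from Wnt1 by -1.12, 0.02 and -0.58, and Dll1 by -1.46, -0.49 and -0.24. The call for Notch1 in this average was lost on leaving out any 1 of 7 arrays (Wnt1 replicates 3, 4, 5 and 6, iFGFR2 replicate 4, iR2 replicates 1 and 3), with adjusted p-values up to 0.0734 without Wnt1 replicate 3. That for Dll1 was lost without any 1 of 8 (Wnt1 replicates 1, 2, 4, 5 and 6, iFGFR1 replicate 1, iR2 replicates 2 and 3), with adjusted p-values up to 0.107. With the arrays scaled to 1 spread limma did not call Dll1 (-0.67, adjusted p = 0.064), and among the more variable genes it did not call Notch1. Between iR2 and iFGFR2 limma called 0 of 10 genes, against 1.34% of all genes, and 1 had an unadjusted p under 0.05. The ranges of these groups overlapped for all 10 genes, and were apart for 13% of all genes.

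Over the 18 arrays the 45 pairs of the 10 genes correlated at -0.75 (Notch4 and Dll1) to 0.67, and 24 pairs were above 0. These values describe arrays that share a reference channel and include the differences between groups. By the same measure the genes most like Notch4 were Chn1 (r = 0.90), Tspan1 (0.88) and Gpd1 (0.87), over 18 arrays. Those most like Notch1 were Plpp3 (0.88), C77080 (0.86) and Snx20 (0.84). Dll1 was followed most closely by Apcdd1 (0.94), Glcci1 (0.94) and Aox3 (0.93). Nearest to Hey1 were C130074G19Rik (0.94), Ddo (0.93) and Liph (0.92). After group means were removed, the values for Dll1 stayed at 0.85 to 0.91 and those for Notch4 were 0.44 to 0.57. The correlation of Notch4 with Dll1 was then -0.17, in place of -0.75.

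The rest of the pathway was read from 61 further genes, of which 55 were measured. In iFGFR1 tumours 6 of these 55 passed (3 higher and 3 lower), in iFGFR2 tumours 1 and in iR2 tumours 6 (3 higher and 3 lower). The shares were 10.9%, 1.82% and 10.9%, beside 15.4%, 3.43% and 7.1% of all genes. The median difference of the 55 genes was -0.06, -0.07 and 0.00.

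The falls in iFGFR1 included other ligands. Of the 6 measured, 3 were called (1 higher and 2 lower), beside 15.4% of all genes. Jag2, a second Jagged ligand, read -0.63 to -0.57 on the 4 iFGFR1 arrays and 0.025 to 0.708 on the Wnt1 arrays, a fall of 1.07 (SE 0.21, adjusted p = 0.0021). Dll4, a ligand of sprouting vessels, fell by 1.21 (SE 0.33, adjusted p = 0.0191). That call was lost without iFGFR1 replicate 1 or 3 and in the fit to the arrays compared. The Dll4 ranges overlapped (-1.276 to -0.273 in iFGFR1, -0.531 to 1.706 in Wnt1), and the F test did not call it (adjusted p = 0.0678). Dner, a non-canonical ligand, was 0.94 higher (adjusted p = 0.0490).

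The widest difference in the list was that of Id4, an inhibitor of DNA-binding helix-loop-helix proteins found in basal mammary cells. It lay between -0.781 and 1.145 in iFGFR1 and between 2.449 and 3.361 in Wnt1. The groups did not overlap, as held for 9.49% of all genes. It fell by 3.01 in iFGFR1 (SE 0.38, adjusted p = 4.77e-05). Id4 was also 2.45 lower in iFGFR1 than in iFGFR2 and 2.88 lower than in iR2. Hes6, which counteracts Hes1, rose by 0.54 (adjusted p = 0.0336) and Bcl6, a repressor that limits Notch targets, by 0.78 (0.0428) in iFGFR1.

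In iR2 tumours Bcl6 rose by 1.18 (SE 0.25, adjusted p = 0.0108), Myc, a proliferation regulator and Notch target, by 0.63 (0.0409) and Adam10, the protease that makes the first cut of an activated receptor, by 0.59 (0.0456). Dtx1, a ubiquitin ligase that binds Notch, fell by 0.90 (0.0151), Dner by 1.16 (0.0308) and Maml3, a coactivator of the Notch complex, by 0.79 (0.0389). In iFGFR2 tumours Hes2, a further Hes repressor, fell by 0.53 (0.0497). Of 5 sugar transferases, which tune ligand choice, limma called 0 against Wnt1 in each group, with 0, 1 and 1 at an unadjusted p under 0.05 in iFGFR1, iFGFR2 and iR2. Of 3 ligand ubiquitin ligases it called 0, also with 0 at an unadjusted p under 0.05. Many of these calls lay close to the threshold. Of the 18 fits that each left out 1 array, 7 lost Hes6, 11 Bcl6 and 13 Dner in iFGFR1, and 13 lost Hes2 in iFGFR2. In iR2, 1 lost Bcl6 (without iR2 replicate 1), 3 Dtx1, 7 Myc, 8 each Dner and Maml3, and 11 Adam10. The calls of Id4 and Jag2 in iFGFR1 held in all 18. Quantile normalization ended the iR2 calls of Dtx1 (-0.45, adjusted p = 0.243), Dner (-0.61, 0.220) and Myc (0.60, 0.0843).

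Between the receptor groups, 2 of the 55 genes were called for iFGFR2 against iFGFR1, Id4 and Rfng, a sugar transferase that was 0.83 lower. For iR2 against iFGFR1 4 were called, namely Id4, Dner (2.09 lower), Jag2 (0.76 higher) and Myc (0.66 higher), and for iR2 against iFGFR2 only Dner (1.70 lower). These are 3.64%, 7.27% and 1.82% of the list, beside 2.13%, 11.7% and 1.34% of all genes. Dner read -6.166 to -5.615 on the iR2 arrays and -5.425 to -2.846 on all others. It was far below the whole-mouse reference in every group. The F test called 9 of the 55 genes, 16.4% beside 19.6% of all genes. In the mean of the 3 receptor groups 8 differed from Wnt1, 14.55% beside 12.5% of all genes, among them Bcl6 (0.84), Id4 (-1.24), Jag2 (-0.66), Hes2 (-0.40), Hes5 (0.51) and Dtx1 (-0.54).

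**Figure D3:**
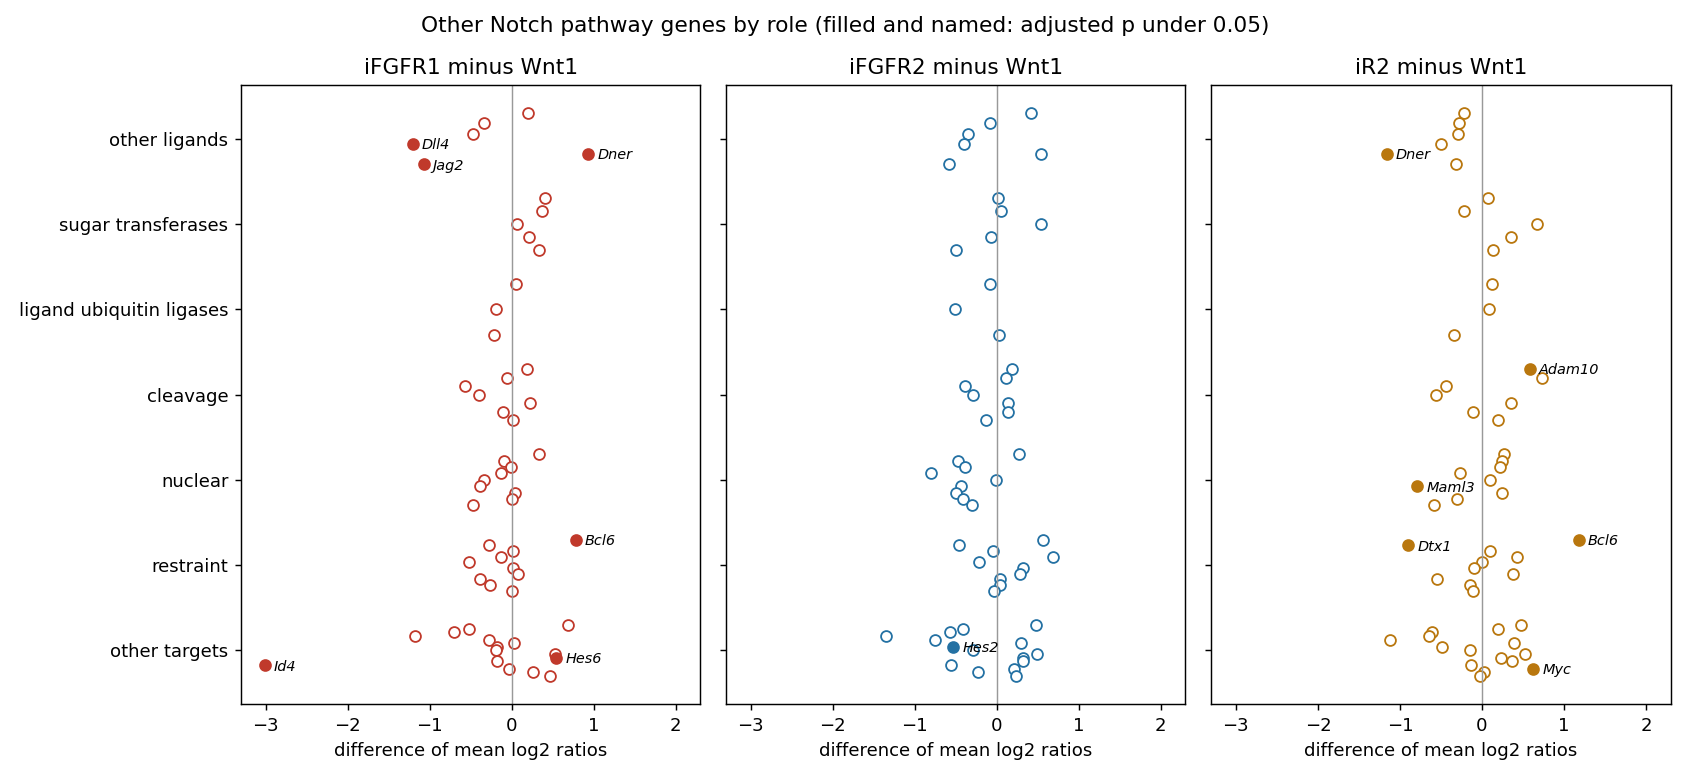
Difference of each receptor group from Wnt1 in mean log2 ratio (horizontal axis) for the 55 other Notch pathway genes, in rows by role, with 1 point per gene; filled and named points passed an adjusted p of 0.05. Id4 lies at -3.01 in iFGFR1, apart from the other genes, and Jag2 and Dll4 lie below -1 there.

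Markers of other cell types were set beside these values, since bulk tumour RNA mixes cells and fewer cells of a type cannot be told apart from less RNA per cell. The marker counts below stand beside 15.4% of all genes called in iFGFR1, 3.43% in iFGFR2 and 7.1% in iR2. Of 17 endothelial markers, 1 was called in iFGFR1 (Eng, -0.95). Of these 17, limma called 0 in iFGFR2 and 0 in iR2, with 1 and 2 at an unadjusted p under 0.05. Their mean was between -1.34 and -0.85 on the iFGFR1 arrays and between -1.52 and -0.48 on the Wnt1 arrays (-1.52 to -0.94 without replicate 3), and the group ranges overlapped. Within iR2 the arrays had the same order for Notch4 and for the endothelial mean (-1.01, -1.14, -1.36 and -1.59). The mural mean had that order too (-1.10, -1.24, -1.42 and -1.68). In the other groups the orders of Notch4 and the endothelial mean differed. On iFGFR1 replicate 2, Notch4 was the highest of its group (1.212) and the endothelial mean the lowest (-1.34). Wnt1 replicate 3 had the highest Wnt1 endothelial mean (-0.48) and read -1.165 for Notch4. The part of endothelial RNA in Notch4 was not tested. Of 9 mural markers 1 was called in iFGFR1 (Pdgfrb, -1.15), with a mean of -1.82 to -1.21 in iFGFR1 and -1.62 to -0.91 in Wnt1. Pdgfrb was also the 1 mural call in iFGFR2 (-1.19). In iR2 limma called 0 of the 9, with 1 at an unadjusted p under 0.05.

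The fibroblast marker mean of every array of the 3 receptor groups was below that of every Wnt1 array. Of 9, 7 fell in iFGFR1, among them Pdgfra (-2.61) and Dcn (-1.79), 1 in iFGFR2 (S100a4) and 2 in iR2 (Fbln1 and S100a4). Their mean was -3.53 to -2.75 in iFGFR1, -2.93 to -2.38 in iFGFR2 and -2.58 to -2.38 in iR2, against -2.13 to -0.95 in Wnt1. Of 10 basal epithelial markers 4 fell in iFGFR1 (Snai2, Krt14, Krt5 and Oxtr) and 1 rose (Acta2). Their mean was -0.59 to -0.27 in iFGFR1 against -0.125 to 0.47 in Wnt1. Acta2 was also the 1 basal call in iR2 (1.28). In iFGFR2 limma called 0 of the 10, with 5 at an unadjusted p under 0.05. Of 13 luminal markers 4 rose in iFGFR1, among them Prom1 (2.85) and Krt8 (1.38), and Aldh1a3 fell. The luminal mean was 1.76 to 2.46 in iFGFR1, 1.84 to 2.23 in iFGFR2, 2.15 to 2.32 in iR2 and 1.01 to 2.39 in Wnt1, where the highest was replicate 3. In iFGFR2 2 luminal markers rose and in iR2 3. Limma called 0 of 7 leukocyte and 0 of 5 adipocyte markers in iFGFR1 and in iFGFR2, and 1 leukocyte marker had an unadjusted p under 0.05 in iFGFR1. In iR2 1 leukocyte marker, Cd3e, fell by 0.70. The part of these shifts in the values of Notch1, Dll1 and Hey1 was not tested.

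**Figure D4:**
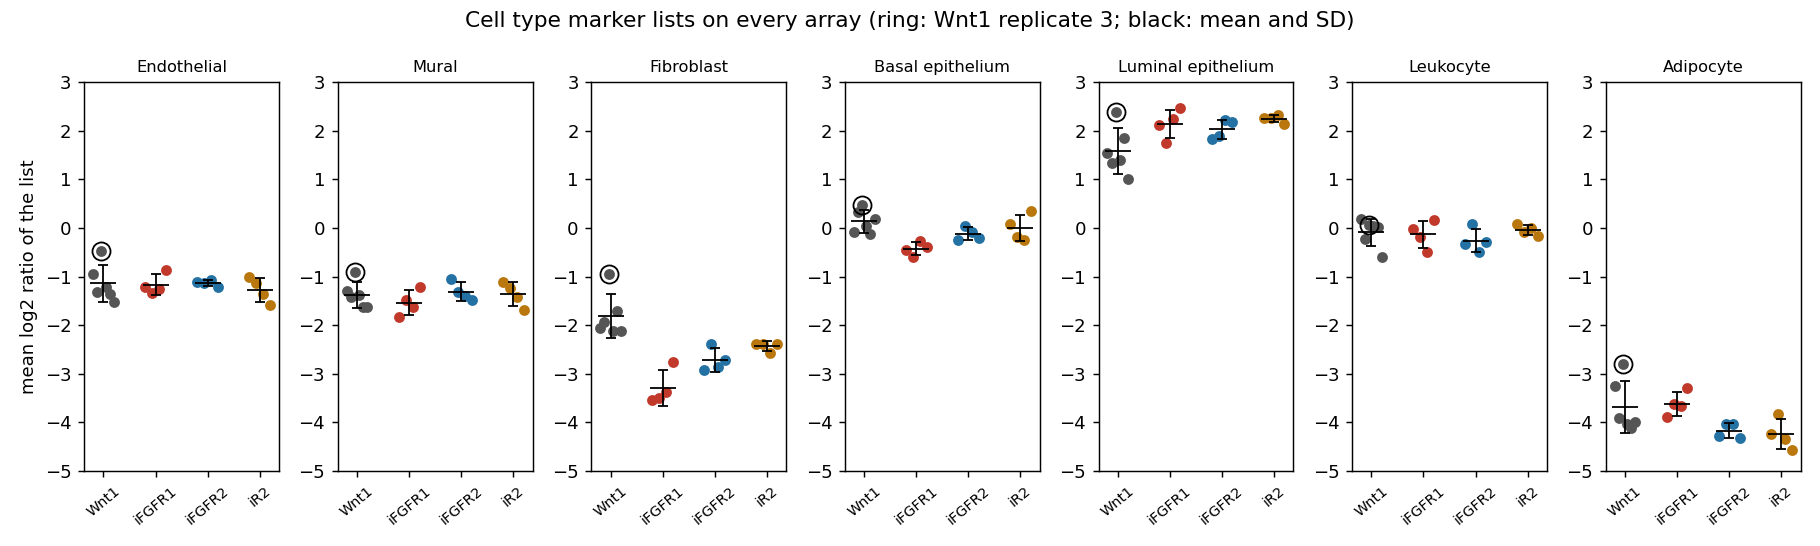
Mean log2 ratio over the genes of each marker list (vertical axis) on every array of the 4 groups, with black bars at the mean and SD and a ring round Wnt1 replicate 3. The fibroblast means of the iFGFR1 (-3.53 to -2.75), iFGFR2 (-2.93 to -2.38) and iR2 arrays (-2.58 to -2.38) are all below those of the Wnt1 arrays (-2.13 to -0.95), and the endothelial means of the groups overlap.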

How the data were processed

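The authors deposited 1 table of log ratios for 18 arrays with 2 channels, read here as log2, tumour (Cy5) over reference (Cy3), per the labels' dyes. The base is not stated in the table. Scanner, background correction and normalization are, in the sources used here, not given. Column medians lay between -0.023 and 0.009, no cell was empty, and 0 of 180 values of the 10 genes were exactly 0. Features were named by the platform annotation; 18445 entries matched RefSeq gene identifiers.

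Features of a symbol were averaged, and 16887 genes were fitted over all 18 arrays and 4 groups with limma 3.58.1 in R 4.3.3 (lmFit, eBayes), unfiltered, with Benjamini-Hochberg adjustment over all genes per comparison and a threshold of 0.05. Adjusted p-values and intervals come from this fit. It was tested on simulated data with the same spread in all groups, so that test does not cover spreads that differ between groups. Errors of levels are SD, and those of differences SE. The number of arrays limits the precision. Replicates were numbered in accession order, and no label says that arrays come from separate animals, so p-values measure only how these samples spread, and that spread may be technical.

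The 10 genes and the lists of pathway genes and markers were chosen with earlier results of these data known. The 10 genes are always named, with up to 6 other pathway genes per comparison, by smallest p, and the 3 genes most correlated with each of the 10 that passed the F test. Some genes of the pathway list were not analysed here. Alternatives were array weights, median centring, arrays brought to 1 median absolute deviation, quantile normalization, other priors, feature choice, a variance filter, a threshold of 0.01, only the arrays compared, the title number as covariate, and each array left out.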

Additional observations from a re-analysis of the deposited data

Results flagged for a closer look

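Among 40 sets of arrays of 1 gene in 1 group, 4 held an array far from the others by Dixon's criterion, which chance meets in about 1 of 20. Wnt1 replicate 3 was such an array for Notch1 (1.197), Hey1 (1.774) and Hey2 (2.238). It also had the highest Wnt1 mean of the endothelial (-0.48), mural (-0.91), fibroblast (-0.95), basal (0.47), luminal (2.39) and adipocyte (-2.803) marker lists. Its leukocyte mean (0.06) was below that of Wnt1 replicate 1 (0.19). The part of these lists in the 3 values was not tested. For Notch3, iFGFR1 replicate 4 (0.827) stood above the other iFGFR1 arrays. That array had the highest iFGFR1 mean of the endothelial (-0.85), mural (-1.21), fibroblast (-2.75), luminal (2.46), leukocyte (0.17) and adipocyte (-3.29) lists. Its basal mean (-0.39) was not the highest. The part of these lists in that Notch3 value was not tested.

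For 3 genes the difference from Wnt1 itself differed between receptor groups by limma's contrast of those groups. Notch1 was 1.14 higher in iFGFR2 than in iFGFR1 (adjusted p = 0.0139), Notch4 differed by -1.47 in iR2 against iFGFR1 (0.00215), and Dll1 was 1.23 higher in iR2 than in iFGFR1 (0.0139). In each case every array of 1 group was above every array of the other. Arrays were so separated for 6.17% of all genes between iFGFR2 and iFGFR1 and for 22.2% between iR2 and iFGFR1. The calls for Notch4 and Dll1 were lost with the title number in the fit (adjusted p = 0.0937 and 0.217), and that for Dll1 also without iR2 replicate 4 (0.0600). The fit to the 8 arrays compared did not call Notch1.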

How the results depend on the processing

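Notch1, Notch4 and Dll1 in iFGFR1 against Wnt1 and Hey1 in iFGFR2 against Wnt1 stayed past the threshold under every alternative run, as did the 4 calls of the F test. Each value below counts genes past the threshold, and where it differs from the main count the cause was not tested. No paired analysis was possible because the labels give no replicate numbers shared between groups. With 4 to 6 arrays a group, Hey2 (pooled SD 1.22) allows only wide intervals. The title numbers of iR2 all lie above those of the other groups, so that covariate and the iR2 label cannot be told apart.

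Over all genes (16887), in the order iFGFR1, iFGFR2, iR2 and their mean against Wnt1, iFGFR2 and iR2 against iFGFR1, iR2 against iFGFR2, and the F test, the counts were 2608, 579, 1199, 2115, 360, 1968, 227 and 3311. At a threshold of 0.01 they were 1023, 82, 235, 692, 112, 789, 30 and 1139. Scaling to 1 median absolute deviation gave 3398 for iR2 against Wnt1, and 164, 3645 and 2051 for the 3 comparisons between receptor groups. Array weights gave 5207 for iR2 and 3457 for the mean against Wnt1, 202 for iFGFR2 against iFGFR1, 1138 for iR2 against iFGFR2 and 6319 for the F test. Fits to the arrays compared gave 143 and 2317 for iFGFR2 and iR2 against Wnt1 and 71 for iFGFR2 against iFGFR1. With the title number the counts were 52 for iR2 and 659 for the mean against Wnt1, 265 for iR2 against iFGFR1 and 2 for iR2 against iFGFR2. Quantile normalization gave 19 for iR2 against iFGFR2 and moved its share of higher calls from 20.26% to 52.63%, that of iR2 against iFGFR1 from 41.31% to 53.68% and that of iR2 against Wnt1 from 55.05% to 65.46%. Scaling to 1 median absolute deviation moved the last to 41.32%. With 1 array left out the counts were, in the same order, 1750 to 3084, 99 to 1470, 303 to 1883, 1221 to 2831, 183 to 530, 1172 to 2338, 19 to 326 and 2276 to 4160.

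Of the 10 genes, 2 were called between iFGFR2 and iFGFR1 after quantile normalization or in the more variable genes (7 of the 10 tested), and 0 in the arrays compared or at 0.01. For iR2 against Wnt1, scaling to 1 median absolute deviation gave 3, array weights and the arrays compared 2, and the title number 0. Over all genes that scaling raised the count from 1199 to 3398, and array weights and the arrays compared raised it too. For iR2 against iFGFR1 the scaling gave 5, the title number 0 and the threshold of 0.01 gave 1. For the mean against Wnt1 the title number left 1 (Hey1) and the threshold of 0.01 left 2. Wherever a count over all genes is given above for the same comparison and setting, it moved the same way. With 1 array left out the ranges were 3 to 4, 1 to 1, 1 to 1, 2 to 4, 1 to 2, 1 to 4, 0 to 0 and 4 to 5. Of all single-gene results of the 10 genes under alternatives, 2222 kept their side of the threshold, 29 lost the call, 25 gained one and 0 reversed.

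Of the other 55 pathway genes, the main counts were 6, 1, 6, 8, 2, 4, 1 and 9 in that order. The 1 call of iFGFR2 against Wnt1 (Hes2) was 0 with median centring, scaling to 1 median absolute deviation, array weights, other feature choices, the more variable genes, the arrays compared, the title number and the threshold of 0.01. For iR2 against Wnt1 the scaling gave 10, array weights 17, the more variable genes 3, and the title number and 0.01 gave 0. The mean against Wnt1 had 13 with array weights, 5 in the more variable genes, 0 with the title number and 1 at 0.01. iFGFR1 against Wnt1 had 2 in the arrays compared and at 0.01. iFGFR2 against iFGFR1 had 1 with quantile normalization, the scaling, array weights, the more variable genes and 0.01, and 0 in the arrays compared. iR2 against iFGFR1 had 11 with the scaling, 2 in the more variable genes and at 0.01, and 1 with the title number. iR2 against iFGFR2 had 0 with quantile normalization, the title number and 0.01, 10 with the scaling and 5 with array weights. The F test gave 17 with the scaling, 22 with array weights, 5 in the more variable genes, 4 with the title number and 3 at 0.01. Here too, any count over all genes given above for the same comparison and setting moved the same way. With 1 array left out the ranges were 3 to 8, 0 to 4, 0 to 9, 4 to 11, 1 to 2, 2 to 5, 0 to 1 and 5 to 13.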
